A study of Homo sapiens with 24 samples.

Results

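ADAMTS genes encode secreted zinc metalloproteases with thrombospondin repeats. The group described here is 6 protein-coding members, ADAMTS1, ADAMTS5, ADAMTS6, ADAMTS7, ADAMTS9 and ADAMTS12, together with ADAMTS7P1 and ADAMTS7P3, transcribed pseudogenes of ADAMTS7. They are 8 of the 61533 genes in the count table, and they were picked by name with their counts in all 24 libraries already known, so their time courses and the calls made on them below are a description of these libraries. The libraries hold newly made RNA from U2OS cells, a human osteosarcoma line with little glucocorticoid receptor (GR) of its own, that carried 1 of 3 GR-HaloTag constructs. The wt pool expressed the unmutated receptor. The SoF (separation of function) pool carried K492A, which in vitro reduces binding to RNA and, less strongly, binding to DNA. The Ctrl pool carried R470A, a control substitution that also reduces binding to DNA but keeps binding to RNA. Each construct was integrated by transposon and each line was a single sorted pool of cells, so a difference between lines is a difference between 3 pools. Cells in charcoal-stripped serum were given the synthetic glucocorticoid dexamethasone at 100 nM and harvested after 1, 2 or 3 h, and control dishes, called 0 h here, got 0.01% ethanol instead. All dishes received 200 µM 4-thiouridine for their last 1 h, and labelled RNA was biotinylated and captured. Every combination of line and time had 2 libraries, giving 12 groups.

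ADAMTS proteases are made as precursors, cleaved by furin-type proprotein convertases, and act on the extracellular matrix. ADAMTS1, ADAMTS5 and ADAMTS9 cleave the large proteoglycans versican and aggrecan, and ADAMTS5 is a main aggrecanase of cartilage. ADAMTS7 and ADAMTS12 form a pair of related enzymes with a mucin domain that act on cartilage oligomeric matrix protein, while ADAMTS6 is related to ADAMTS10, which takes part in fibrillin microfibrils.

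The sequences show why ADAMTS7 and its pseudogenes have to be read together. Coding exon 15 of ADAMTS7 (hg38 chr15:78771585-78771829, minus strand) and its copies in ADAMTS7P1 (chr15:82322084-82322328, plus strand) and ADAMTS7P3 (chr15:77981382-77981626, plus strand) are all 245 bases long. They are printed because this exon aligned from end to end without a gap at both pseudogenes. Capitals mark, in ADAMTS7, the 16 positions at which either pseudogene differs and, in each pseudogene, its own differing bases.
ADAMTS7: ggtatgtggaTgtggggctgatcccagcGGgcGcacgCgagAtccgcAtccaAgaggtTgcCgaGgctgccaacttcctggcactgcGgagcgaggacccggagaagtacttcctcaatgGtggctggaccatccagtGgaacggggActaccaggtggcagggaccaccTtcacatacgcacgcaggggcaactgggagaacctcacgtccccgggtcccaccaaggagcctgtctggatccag
ADAMTS7P1: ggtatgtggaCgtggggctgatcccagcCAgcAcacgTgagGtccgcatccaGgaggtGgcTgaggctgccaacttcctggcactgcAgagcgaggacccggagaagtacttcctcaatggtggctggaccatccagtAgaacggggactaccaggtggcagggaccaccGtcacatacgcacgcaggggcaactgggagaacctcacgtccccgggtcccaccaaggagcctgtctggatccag
ADAMTS7P3: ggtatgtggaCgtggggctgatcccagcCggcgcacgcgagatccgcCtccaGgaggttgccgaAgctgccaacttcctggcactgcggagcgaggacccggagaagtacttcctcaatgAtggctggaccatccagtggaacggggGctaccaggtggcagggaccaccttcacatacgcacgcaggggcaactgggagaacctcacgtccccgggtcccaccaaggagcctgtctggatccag
ADAMTS7P1 differed from ADAMTS7 at 12 bases of this exon (95.1% identity), with a longest identical run of 74 bases, and ADAMTS7P3 differed at 7 (97.1%), with a longest run of 97. The pseudogenes shared 3 of these positions. Over all coding exons that could be aligned, ADAMTS7P1 was 94.5% identical to ADAMTS7 over 22 of its 24 exons, and ADAMTS7P3 was 95.4% identical over 15. Of all windows of 150 bases within single exons, 4.95% of those in ADAMTS7, 20.55% in ADAMTS7P1 and 11.88% in ADAMTS7P3 also occurred at another locus of the family, and at 50 bases these shares were 22.54%, 52.71% and 21.77%. At 150 bases most windows of each gene were thus found at 1 locus of the family, whereas at 50 bases most of those in ADAMTS7P1 were not. Reads were sequenced in pairs of 150 bases each, before trimming. How the counting treated reads with several matches was not given in the sources used here. The counts of the pseudogenes are uncertain for that reason.

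ADAMTS1 (ENSG00000154734.16, chr21:26835755-26845409 of hg38, GENCODE) and ADAMTS5 (ENSG00000154736.6, chr21:26917922-26967088) are neighbours on the minus strand with 72.5 kb between them. ADAMTS6 (chr5:65148738-65481920) and ADAMTS12 (chr5:33523535-33892019) are long genes on chromosome 5, and ADAMTS9 is at chr3:64515654-64688000. ADAMTS7 (chr15:78759206-78811464), ADAMTS7P1 (chr15:82298553-82334609) and ADAMTS7P3 (chr15:77976042-77993057) are all on chromosome 15. ADAMTS9 shares 174 exon bases with ADAMTS9-AS1 on the opposite strand, and that antisense gene received 1 count over all libraries. ADAMTS7P3 shares 45 exon bases with TBC1D2B on the opposite strand. ADAMTS7P1 and ADAMTS7P3 also overlap, by 601 and 161 exon bases on the same strand, long noncoding genes of GENCODE release 44 that the count table does not list.

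Totals per library ran from 8106036 to 15820806 counts. NR3C1, the receptor gene, stood at 334 to 1595 CPM (counts scaled to a common library size) in wt, 1118 to 6273 in SoF and 1627 to 7658 in Ctrl libraries. Of 8 osteoblast and mesenchymal markers 5 averaged at least 1 CPM, with VIM at 664 and RUNX2 at 102, whereas COL1A2 (0.257), SP7 (0.0479) and BGLAP (0.859) were near 0. Of 13 markers of other cell types 9 averaged under 1 CPM, and the highest was RBFOX3 at 9.81. Some markers moved at 3 h. Of the 6 markers of other cell types that passed the low-count filter, CDH1, an epithelial adhesion gene, fell in each line (-2.04 in wt, -2.41 in SoF, -1.78 in Ctrl, on the log2 scale), and the others were not called. The summed level of the 13 genes was 17.0 to 28.2 CPM over the 0 h libraries and 14.1 to 23.7 over those of 3 h. Of 6 osteoblast and mesenchymal markers that passed, RUNX2 fell and ALPL rose in each line and COL1A1 rose in SoF and Ctrl cells, while the 8 genes summed to 1228 to 1901 CPM at 0 h and 1436 to 2320 at 3 h. The part of these changes in the ADAMTS values was not tested. The replicate labels do not say whether the 2 libraries of a group came from separate cultures, so the standard errors (SE) below measure only the spread between these libraries, which may be technical. Both libraries of a group were taken through biotin capture as a pair, and the capture and the group cannot be told apart. With bulk RNA, fewer cells that make a transcript and less transcript per cell also cannot be told apart.

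Per kilobase of exon, a scale on which genes can be compared, the members spanned a wide range. Mean levels over the 24 libraries were 17.8 CPM per kb for ADAMTS12, 16.4 for ADAMTS6, 8.23 for ADAMTS1, 0.938 for ADAMTS9, 0.723 for ADAMTS7 and 0.615 for ADAMTS5, with ADAMTS7P1 at 0.106 and ADAMTS7P3 at 0.0772. The order changed with treatment. At 0 h the means over lines ran ADAMTS6 (20.4), ADAMTS12 (17.2), ADAMTS1 (13.0), ADAMTS5 (0.939), ADAMTS9 (0.282) and ADAMTS7 (0.177). The libraries of ADAMTS12 and ADAMTS1 overlapped in wt cells, and those of ADAMTS6 overlapped with both ADAMTS12 and ADAMTS1 in Ctrl cells. The Ctrl mean of ADAMTS12 (18.5) was above that of ADAMTS6 (18.2). At 3 h ADAMTS12 (17.3) and ADAMTS6 (9.49) led and ADAMTS5 (0.247) was last of the coding genes in each line, while the order of ADAMTS1, ADAMTS7 and ADAMTS9 between them depended on the line. In wt cells ADAMTS1 (1.68), ADAMTS7 (1.35) and ADAMTS9 (1.30) had overlapping libraries. In SoF cells ADAMTS9 (3.14) lay above ADAMTS1 (1.95) and ADAMTS7 (1.8), which overlapped. In Ctrl cells ADAMTS1 (1.70) lay above ADAMTS9 (1.1) and ADAMTS7 (1.07), which overlapped.

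**Figure D1:**
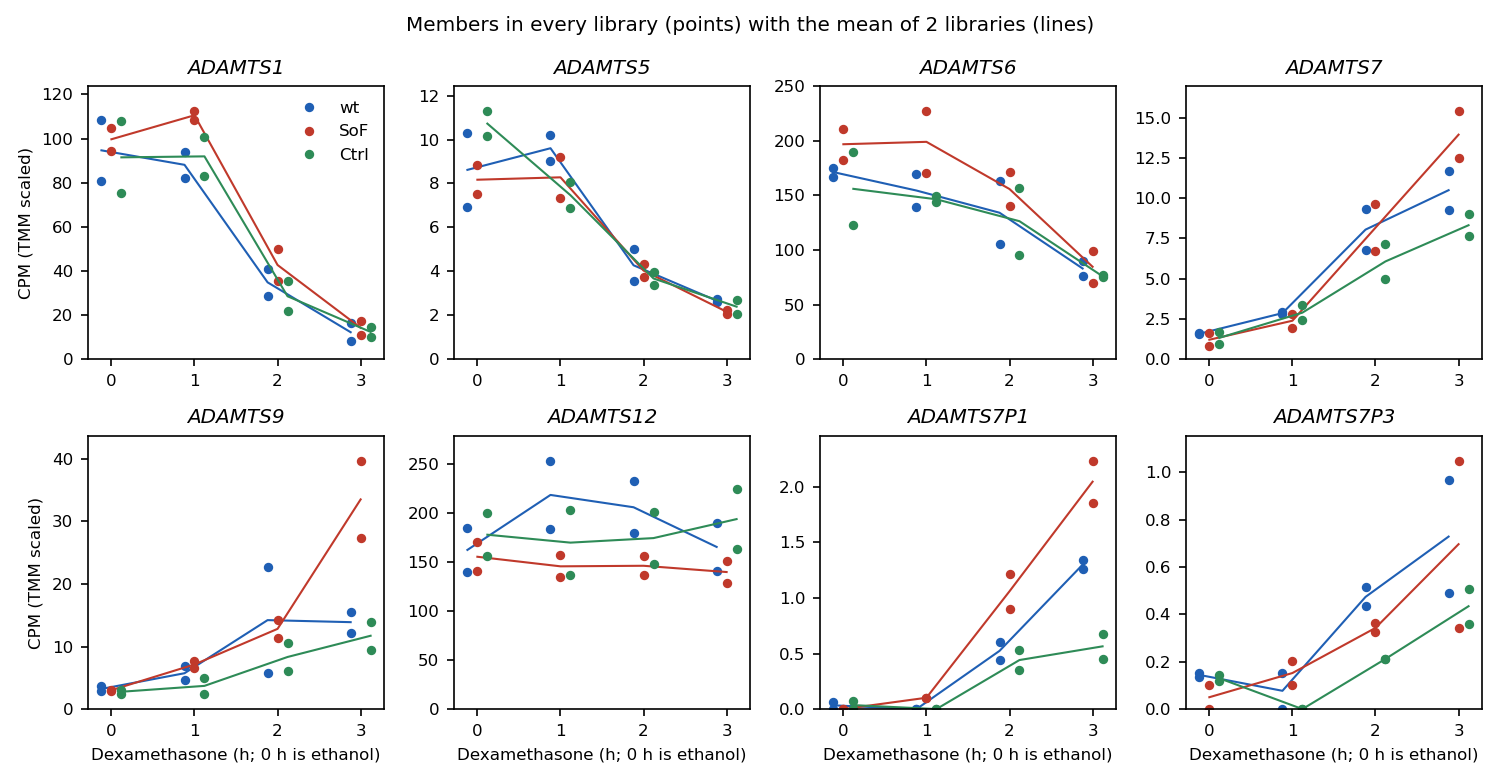
Level of each member (vertical axis, CPM scaled by trimmed mean of M values, from 0) against hours of dexamethasone (horizontal axis, 0 h is ethanol) in wt, SoF and Ctrl libraries. Each point is 1 library and each line joins means of 2 libraries; ADAMTS1, ADAMTS5 and ADAMTS6 end low, ADAMTS7, ADAMTS9 and both pseudogenes end high, and ADAMTS12 stays between 128 and 253 CPM.

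Of the 3 members that cleave versican and aggrecan, ADAMTS1 and ADAMTS5 were lower after 2 and 3 h, whereas ADAMTS9, described further on, was higher. ADAMTS1 in wt cells read 80.9 and 108 CPM at 0 h, 93.9 and 82.3 at 1 h, 41.1 and 28.6 at 2 h, and 16.2 and 8.24 at 3 h. In SoF cells it read 94.6 and 105, 109 and 113, 35.7 and 49.8, and 11.1 and 17.5 at the same times. In Ctrl cells the values were 75.2 and 108, 83.1 and 101, 21.8 and 35.3, and 10.3 and 14.5. In every line the 0 h and 1 h libraries lay together, each 2 h library lay below all of them, and each 3 h library lay below each 2 h library. The log2 change at 3 h against 0 h was -2.95 (SE 0.30) in wt, -2.81 (SE 0.30) in SoF and -2.88 (SE 0.30) in Ctrl cells, which is 7.74-fold, 7.0-fold and 7.37-fold lower.

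ADAMTS5, the neighbour of ADAMTS1, was less abundant, at a mean of 0.615 against 8.23 CPM per kb, and followed a similar course. Its wt libraries read 10.3 and 6.92 CPM at 0 h, 9.01 and 10.2 at 1 h, 5.00 and 3.56 at 2 h, and 2.61 and 2.72 at 3 h. Its SoF libraries read 7.52 and 8.82, 7.34 and 9.22, 3.73 and 4.34, and 2.26 and 2.06. Its Ctrl libraries read 10.1 and 11.3, 8.05 and 6.88, 3.38 and 3.97, and 2.72 and 2.07. Again the 2 h and 3 h libraries did not overlap with those of 0 h and 1 h in any line. At 3 h the log2 change was -1.69 (SE 0.25) in wt, -1.91 (SE 0.26) in SoF and -2.15 (SE 0.26) in Ctrl cells.

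ADAMTS6 fell later and less. The wt libraries held 175 and 167 CPM at 0 h, 139 and 169.9 at 1 h, 163 and 105 at 2 h, and 76.3 and 89.9 at 3 h. The SoF libraries held 183 and 211, 171 and 227, 141 and 171, and 70.2 and 99.2. The Ctrl libraries held 123 and 189, 144 and 149, 95.7 and 157, and 77.0 and 74.9. The 2 h libraries overlapped with those of 1 h in every line, and every 3 h library lay below every other library of its line. The log2 change at 3 h was -1.04 (SE 0.24) in wt, -1.22 (SE 0.24) in SoF and -1.04 (SE 0.24) in Ctrl cells. It missed an adjusted p of 0.05 without 1 wt library of 3 h (replicate 1; log2 change -0.92) and without either of 2 Ctrl libraries (replicate 2 of 0 h, -0.69; replicate 2 of 3 h, -1.01).

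ADAMTS12, on average the most abundant member per kb, did not follow any of the others. In wt cells it read 185 and 139.9 CPM at 0 h, 183 and 253 at 1 h, 179 and 233 at 2 h, and 190.1 and 141 at 3 h. In SoF cells it read 170.0 and 141, 157 and 134, 156 and 137, and 151 and 128. In Ctrl cells it read 199.5 and 156, 203 and 137, 201 and 148, and 224 and 163. The libraries of 0 h and 3 h overlapped in each line, and in each line the widest gap between replicates exceeded every step between the means of successive times. The log2 difference at 3 h against 0 h was 0.03 (SE 0.23) in wt, -0.15 (SE 0.23) in SoF and 0.12 (SE 0.23) in Ctrl cells.

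ADAMTS7, the sister gene of ADAMTS12, was higher after treatment. Its wt libraries read 1.55 and 1.62 CPM at 0 h, 2.95 and 2.78 at 1 h, 9.33 and 6.76 at 2 h, and 11.7 and 9.29 at 3 h. Its SoF libraries read 1.62 and 0.802, 2.82 and 1.97, 9.64 and 6.69, and 15.4 and 12.5. Its Ctrl libraries read 1.71 and 0.942, 2.45 and 3.34, 7.18 and 4.97, and 7.64 and 9.0. The 1 h libraries already lay above the 0 h libraries in every line, and all 2 h and 3 h libraries lay above those of 1 h. At 3 h the log2 change was 2.72 (SE 0.31) in wt, 3.46 (SE 0.33) in SoF and 2.57 (SE 0.34) in Ctrl cells, or 6.59-fold, 11-fold and 5.93-fold. Adding the counts of ADAMTS7P1, ADAMTS7P3 and ADAMTS7P4 to those of ADAMTS7, so that the split of counted reads among these genes does not enter, gave 2.77, 3.73 and 2.50.

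ADAMTS9 was also higher, with a wider spread. In wt cells it read 2.83 and 3.62 CPM at 0 h, 4.59 and 6.87 at 1 h, 5.73 and 22.7 at 2 h, and 15.6 and 12.2 at 3 h. In SoF cells it read 2.95 and 3.11, 7.65 and 6.63, 14.3 and 11.4, and 39.7 and 27.3. In Ctrl cells it read 3.07 and 2.47, 5.00 and 2.43, 10.6 and 6.10, and 14.0 and 9.45. The 3 h libraries lay above the 0 h libraries in every line, and the SoF libraries of 3 h lay above those of both other lines. The log2 change at 3 h was 2.11 (SE 0.44) in wt, 3.47 (SE 0.45) in SoF and 2.06 (SE 0.47) in Ctrl cells. In wt cells the value at 2 h, 2.13 (SE 0.45), rested on 1 library, since without replicate 2 of that time it was 0.81. In Ctrl cells the 3 h value missed an adjusted p of 0.05 without replicate 2 of 0 h (1.93) or replicate 1 of 3 h (1.75).

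In the edgeR quasi-likelihood fit over all 23651 genes that passed the filter on low counts, calls were made at a Benjamini-Hochberg adjusted p under 0.05. At 1 h none of the 6 coding members was called, where 0.156% of all genes tested were called in wt, 0.165% in SoF and 0.0465% in Ctrl cells. At an unadjusted p under 0.05 the number was 1 in wt (ADAMTS7), 2 in SoF (ADAMTS7 and ADAMTS9) and 2 in Ctrl cells (ADAMTS5 and ADAMTS7), beside 11%, 6.96% and 1.79% of all genes, and DESeq2 called 0 in each line. At 2 h 4 of 6 were called in wt cells against 4.6% of all genes, 4 of 6 in SoF cells against 5.68%, and 3 of 6 in Ctrl cells against 7.95%. These were ADAMTS1 and ADAMTS5 downward and ADAMTS7 upward in each line, and ADAMTS9 upward in wt and SoF cells. In Ctrl cells ADAMTS9 stood at 1.54 (SE 0.48; edgeR adjusted p = 0.052) and was called by DESeq2, without the filter, with a replicate block and in a fit of the Ctrl libraries alone. In wt cells ADAMTS5 was not called in a fit of the wt libraries alone (-1.02; edgeR adjusted p = 0.060). Leaving out 1 library lowered the count at 2 h to 2 in wt cells without either library of 0 h and to 1 without replicate 2 of 2 h, and to 1 in SoF cells without replicate 2 of 0 h or replicate 1 of 2 h. At 3 h 5 of 6 were called in every line, 3 downward and 2 upward, where 10.7%, 19.3% and 14.2% of all genes were called in wt, SoF and Ctrl cells. Without replicate 2 of 0 h the Ctrl count was 3. The median absolute log2 difference of the 6 genes at 3 h was 1.90 for wt, 2.36 for SoF and 2.10 for Ctrl cells, beside 0.32, 0.40 and 0.36 over all genes tested. The 3 times were compared with the same 0 h libraries and are not independent of each other. Because the genes were picked with these columns known, nothing is read from the counts beyond the values themselves.

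Over all genes, the 2 libraries of 0 h differed from each other more than those of any other time in each line. A comparison of 3 h with 1 h uses no ethanol library. All 5 members called at 3 h against 0 h were called here too, again 3 downward and 2 upward in each line, where 16%, 32.6% and 16.9% of all genes were called in wt, SoF and Ctrl cells. For ADAMTS1 the log2 change from 1 h to 3 h came to -2.85 in wt, -2.96 in SoF and -2.89 in Ctrl cells, and for ADAMTS7 it was 1.87, 2.54 and 1.52. ADAMTS9 gave 1.27 (SE 0.42), 2.23 (SE 0.42) and 1.66 (SE 0.46), and neither DESeq2 nor a fit of the wt libraries alone called it in wt cells. The count was 3 without replicate 2 of 1 h or either library of 3 h in wt cells, and without replicate 2 of 1 h or replicate 1 of 3 h in Ctrl cells.

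Immediate early genes, which serum and handling switch on within minutes, moved in the same direction as ADAMTS1, ADAMTS5 and ADAMTS6. Of 10 such genes 9 fell at 3 h in wt, 9 in SoF and 10 in Ctrl cells, and JUNB was the one not called in wt (log2 difference -0.77) and SoF (-0.73). The summed level of the 10 genes in the 0 h libraries was 13054 to 23559 CPM in wt cells. It was 17242 to 17907 CPM in SoF and 19157 to 19546 CPM in Ctrl cells. The wt libraries of 0 h thus lay furthest apart, which bears on the wt values at 3 h against 0 h. In the 3 h libraries of all lines the sum was 3937 to 4939 CPM. The medium was replaced when dexamethasone or ethanol was added and the length of the ethanol treatment is not given in the sources used here, so time since the change of medium and time in dexamethasone cannot be told apart. The part of this in the ADAMTS values was not tested.

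**Figure D2:**
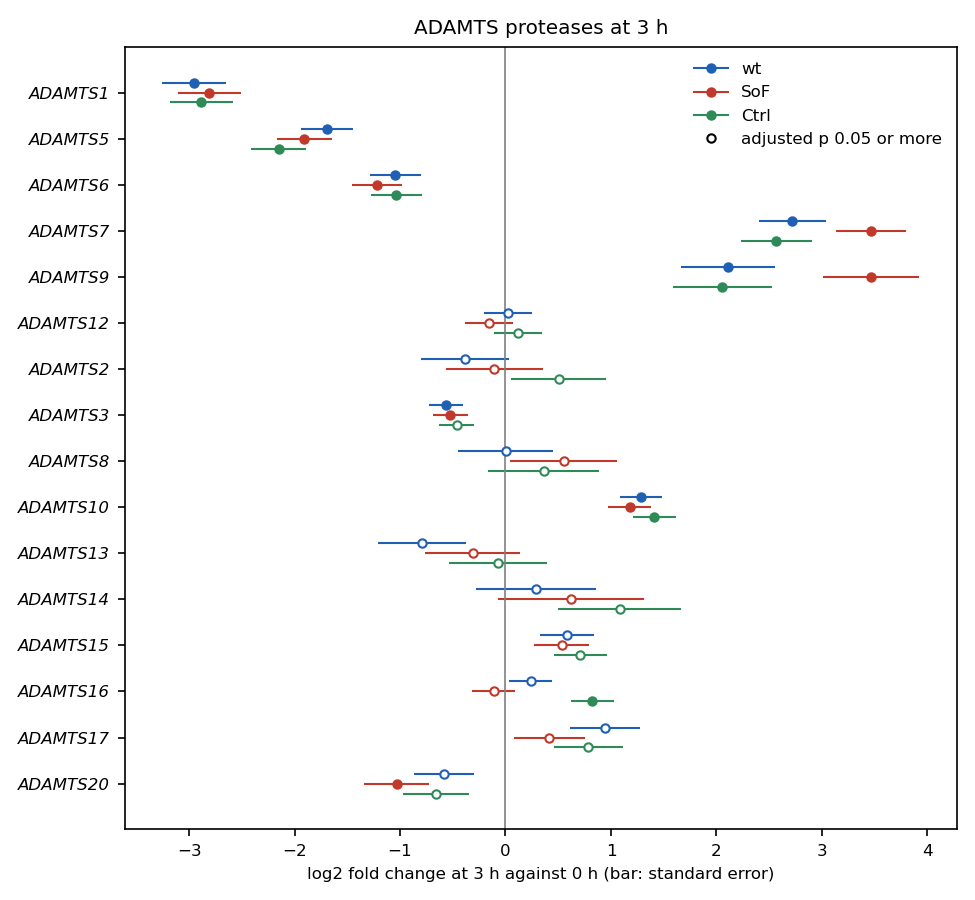
Log2 fold change at 3 h against 0 h (horizontal axis) with its standard error (bars) for the 6 coding members and the 10 other ADAMTS protease genes that passed the low-count filter, in wt, SoF and Ctrl cells. Filled points have an adjusted p under 0.05. ADAMTS1 lies lowest at -2.95 to -2.81, and ADAMTS7 and ADAMTS9 lie highest. The 10 other genes lie between -0.79 and 1.28 in wt, -1.03 and 1.18 in SoF, and -0.66 and 1.41 in Ctrl cells.

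The pseudogenes were close to the detection limit before treatment. ADAMTS7P1 read 0.0674 and 0 CPM at 0 h in wt cells, 0 and 0 at 1 h, 0.441 and 0.607 at 2 h, and 1.34 and 1.26 at 3 h. The SoF libraries gave 0 and 0, 0.101 and 0.104, 1.22 and 0.905, and 1.86 and 2.24. The Ctrl libraries gave 0.0714 and 0, 0 and 0, 0.528 and 0.355, and 0.679 and 0.450. In each line both 2 h and both 3 h libraries lay above all libraries of 0 h and 1 h. ADAMTS7P1 rested on 150 counts in all, of which the 0 h libraries held 1 in wt, 0 in SoF and 1 in Ctrl cells, against 36, 49 and 13 at 3 h. With a floor of 3 counts over the 0 h group, ADAMTS7P1 was at least 16.0-fold higher at 3 h in SoF cells. The ratio was 36.1 in wt cells (95% exact counting interval 6.08 to 1466) and 12.8 in Ctrl cells (1.92 to 543). The bound for SoF cells rests on the floor and the other two values on a single count each, so they do not rank the lines. Over both libraries of 3 h the level was 1.30 CPM in wt, 2.04 in SoF and 0.57 in Ctrl cells.

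ADAMTS7P3 was scarcer, with 85 counts in all. Its wt libraries read 0.135 and 0.154 CPM at 0 h, 0 and 0.154 at 1 h, 0.514 and 0.434 at 2 h, and 0.969 and 0.489 at 3 h. Its SoF libraries read 0 and 0.100, 0.201 and 0.104, 0.324 and 0.362, and 1.05 and 0.344. Its Ctrl libraries read 0.143 and 0.118, 0 and 0, 0.211 and 0.213, and 0.509 and 0.360. In every line both 3 h libraries lay above both 0 h libraries, which held at most 2 counts each. The share of all genes whose libraries separate in this way was not counted, for this gene or for the other members. The ratio of 3 h to 0 h was 5.02 in wt (95% exact counting interval 1.68 to 20.2), 16.7 in SoF (2.61 to 696) and 3.28 in Ctrl cells (0.843 to 18.5). The intervals of both pseudogenes pool the 2 libraries of a group and cover counting error only. They leave out the spread between libraries and are no test of a change.

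Both pseudogenes passed the low-count filter only through treated libraries, so their calls in the fit are not counted here. The filter's cut was 0.846 CPM, taken on library totals before TMM scaling. ADAMTS7P1 passed it in 6 libraries, 2 of them from 2 h and 4 from 3 h. ADAMTS7P3 passed in 2 libraries of 3 h, whereas each coding member passed in all 24. After scaling, ADAMTS7 read 0.802 CPM in replicate 2 of 0 h in SoF cells. Set against the sum of ADAMTS7, ADAMTS7P1 and ADAMTS7P3, the pseudogenes were minor. At 3 h ADAMTS7P1 made up 10.4% of that sum in wt (36 of 346 counts, 95% exact binomial interval 7.39 to 14.1%), 12.2% in SoF (49 of 402, 9.16 to 15.8%) and 6.10% in Ctrl cells (13 of 213, 3.29 to 10.2%). ADAMTS7P3 made up 5.78% in wt (3.57 to 8.79%), 4.23% in SoF (2.48 to 6.68%) and 4.69% in Ctrl cells (2.27 to 8.46%). At 0 h ADAMTS7P1 held 0 of 31 counts in SoF cells, which allows a share of up to 9.68% by a limit of 3 counts and 11.2% by the exact binomial interval. Both lie below the 12.2% of 3 h and above the lower end of its interval, and the change in share was not tested.

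**Figure D3:**
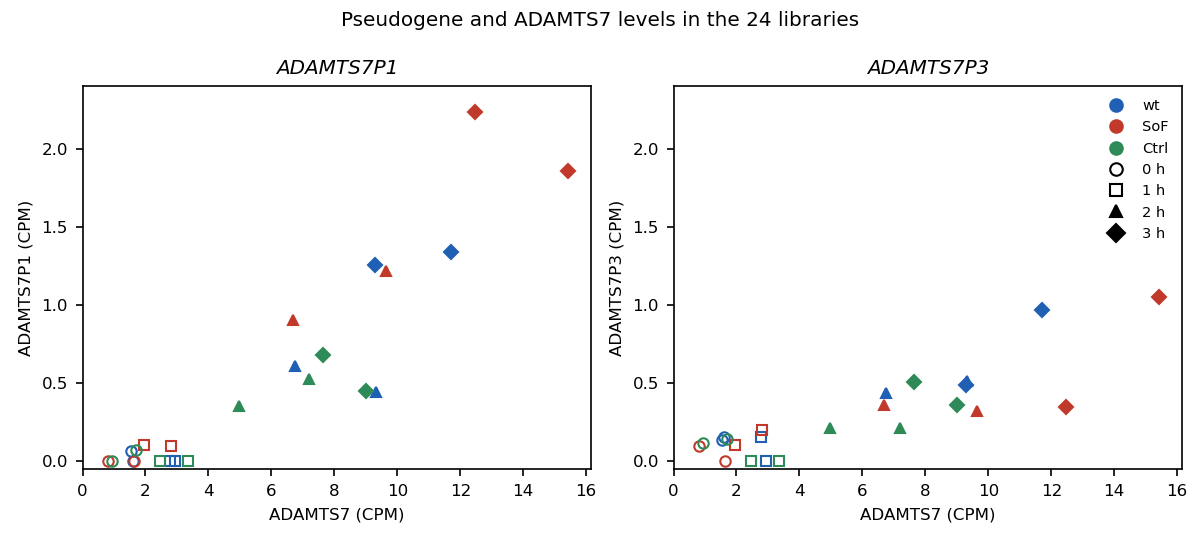
ADAMTS7P1 (left) and ADAMTS7P3 (right) in CPM against ADAMTS7 in CPM (horizontal axis), 1 point per library, with colour for the line and shape for the time. Libraries of 0 h and 1 h gather near the origin, and those of 2 h and 3 h lie to the upper right, with ADAMTS7P1 reaching 2.24 CPM and ADAMTS7P3 1.05 CPM.

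The promoters of ADAMTS6 and ADAMTS7, which moved in opposite directions, differ in base composition. RefSeq promoter sequences (GRCh38.p14) matched 3 of the 8 members, ADAMTS6, ADAMTS7 and ADAMTS12. The 250 bases before the start site are printed for the first pair (chr5:65481921-65482170 and chr15:78811465-78811714, both minus strand) because they show this contrast, with capitals for GC boxes (GGGCGG or CCGCCC) and for cyclic AMP response element half-sites (TGACG or CGTCA).
ADAMTS6: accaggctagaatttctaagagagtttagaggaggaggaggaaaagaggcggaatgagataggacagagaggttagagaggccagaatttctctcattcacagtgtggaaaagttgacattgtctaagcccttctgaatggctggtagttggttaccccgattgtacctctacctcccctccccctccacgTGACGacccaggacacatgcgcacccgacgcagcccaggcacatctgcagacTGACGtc
ADAMTS7: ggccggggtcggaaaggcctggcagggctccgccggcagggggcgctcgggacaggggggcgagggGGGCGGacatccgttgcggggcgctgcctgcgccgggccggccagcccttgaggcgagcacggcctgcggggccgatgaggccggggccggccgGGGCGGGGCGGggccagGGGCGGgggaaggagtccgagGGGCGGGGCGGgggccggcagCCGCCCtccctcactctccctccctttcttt
The ADAMTS7 promoter was 80.8% G or C and held 7 GC boxes, some of them overlapping, and no cyclic AMP half-site. The ADAMTS6 promoter was 52.4% G or C, with 2 cyclic AMP half-sites and no GC box, and the ADAMTS12 promoter was 68.4% G or C with 1 GC box. Across 35116 promoters the median was 58.0% G or C, 42.6% held a GC box and 21.2% a cyclic AMP half-site on either strand. None of the 3 held the receptor half-site TGTTCT or the AP-1 site TGACTCA on either strand, which were present in 12.4% and 4.2% of all promoters. These matches describe letters in this window, and the data do not show whether any factor bound there.

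Between lines, no coding member passed the test for a difference in its 3 h response, and the estimates with their errors follow. The response of ADAMTS9 was larger in SoF cells by 1.41 on the log2 scale (SE 0.66) than in Ctrl cells, and by 1.36 (SE 0.64) than in wt cells. With any 1 of the 8 libraries of the groups compared left out, these differences ran from 1.11 to 1.72 and from 1.05 to 1.59. Each SE comes from a fit over all 12 groups. For ADAMTS7 the response in SoF cells exceeded that in Ctrl cells by 0.90 (SE 0.50) and that in wt cells by 0.74 (SE 0.48). For ADAMTS1 the same differences were 0.08 (SE 0.41) and 0.15 (SE 0.41), and for ADAMTS6 they were -0.18 (SE 0.34) and -0.17 (SE 0.34). The edgeR fit called 0 of 6 coding members for SoF against Ctrl, where 0.0127% of all genes were called, 0 of 6 for SoF against wt, where 0% were called, and 0 of 6 for Ctrl against wt, where 0% were called. At an unadjusted p under 0.05 the numbers were 1 (ADAMTS9), 1 (ADAMTS9) and 0 of 6, beside 2.84%, 2.36% and 3.57% of all genes. DESeq2 called 0 members in each. For SoF against Ctrl it gave 3 of them, ADAMTS5, ADAMTS7 and ADAMTS9, no adjusted p, so it could not have called these genes there.

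With time ignored and all 8 libraries of a line compared, the edgeR fit called 0 of 6 coding members for SoF against Ctrl, where 3.61% of all genes were called, 0 of 6 for SoF against wt (8.02%) and 0 of 6 for Ctrl against wt (4.77%). At an unadjusted p under 0.05 the numbers were 2 (ADAMTS9 and ADAMTS12), 1 (ADAMTS12) and 0, beside 14.3%, 25.1% and 18.9% of all genes. ADAMTS9 averaged higher in SoF than in Ctrl cells by 1.1 (SE 0.52) on the log2 scale, but by 0.10 (SE 0.53) in the 0 h libraries alone. ADAMTS12 was lower in SoF than in wt cells by a log2 difference of -0.35 (SE 0.12), which DESeq2 called, and the 0 h libraries alone gave -0.06 (SE 0.23). The spread within a line here includes the time course. With an additive term for time, ADAMTS9 (0.94) and ADAMTS6 (0.32) were called for SoF against Ctrl, where 13.3% of all genes were called, and ADAMTS12 (-0.34) for SoF against wt, where 29% were. Ctrl against wt gave 0 of 6 with that term, beside 18.8% of all genes.

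Over the 24 libraries the coding members fell into groups of like course, given as Pearson's r of log2 CPM. This is a description only, since all points share the time course and the libraries. The pseudogenes are left out because of their low counts. ADAMTS1 correlated with ADAMTS5 (r = 0.93) and ADAMTS6 (r = 0.89), ADAMTS7 with ADAMTS9 (r = 0.86), and ADAMTS1 with ADAMTS7 inversely (r = -0.86). ADAMTS12 lay between -0.24 and 0.11 with every other coding member. Among all genes tested, those most like ADAMTS1 were ATF3 (r = 0.975), a stress-induced transcription factor, ENSG00000234819 (0.974) and GBP2 (0.974). ADAMTS5 was most like LIMA1 (0.960), COL3A1 (0.958) and ATF3 (0.95), and ADAMTS6 most like EGF (0.940), GBP2 (0.934) and ENSG00000227496 (0.932). For ADAMTS7 the nearest were CAMK2N1 (0.954), GGT5 (0.953) and CCND3 (0.949). For ADAMTS9 they were ALCAM (0.948), FOXO1 (0.934) and ENSG00000288542 (0.927), and for ADAMTS12 they were less close, MARCHF4 (0.859), EFR3B (0.802) and CBLN2 (0.781).

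Of the 13 remaining ADAMTS protease genes 10 passed the filter. At 3 h 1 rose and 1 fell in wt, 1 rose and 2 fell in SoF, and 2 rose and none fell in Ctrl cells, beside 10.7%, 19.3% and 14.2% of all genes called. ADAMTS10, the relative of ADAMTS6, rose in every line, from 11.9 and 12.1 to 25.4 and 32.8 CPM in wt, from 12.5 and 11.4 to 29.1 and 25.1 in SoF, and from 13.9 and 11.5 to 29.9 and 38.1 in Ctrl cells. Its log2 change was 1.28 (SE 0.20), 1.18 (SE 0.20) and 1.41 (SE 0.20), opposite in sign to that of ADAMTS6. ADAMTS3, a procollagen peptidase, fell by 0.56 in wt and by 0.52 in SoF cells on the log2 scale and stood at -0.46 in Ctrl cells. ADAMTS20 fell in SoF cells (-1.03) and ADAMTS16 rose in Ctrl cells (0.82). ADAMTS4, the other classical aggrecanase, held 16 counts in all libraries together and was not tested. Of 7 ADAMTS-like genes, which lack the protease domain, 6 passed the filter. ADAMTSL3 fell in wt (-0.62) and SoF cells (-0.69), ADAMTSL5 rose in SoF (0.97) and Ctrl cells (1.07), and ADAMTSL4 rose in SoF cells (0.94). Of 6 other family pseudogenes and antisense genes 2 passed the filter, the antisense genes ADAMTSL4-AS1 and ADAMTSL4-AS2, and neither was called. ADAMTS7P4, a further pseudogene of ADAMTS7, did not pass and was not tested. It held 64 counts in all and averaged 0.0164 CPM per kb at 0 h and 0.103 at 3 h over the lines.

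Among known substrates, ACAN, which encodes aggrecan, rose strongly while ADAMTS5 fell. ACAN read 4.58 and 4.31 CPM at 0 h and 35.7 and 46.8 at 3 h in wt cells, 7.08 and 3.81 and then 61.0 and 37.1 in SoF cells, and 6.43 and 3.65 and then 32.7 and 43.0 in Ctrl cells. The groups were far apart in each line, and the log2 change was 3.21 (SE 0.31), 3.14 (SE 0.31) and 2.86 (SE 0.32), with edgeR adjusted p of 8.15e-07, 5.05e-07 and 4.16e-06. VCAN, which encodes versican, a substrate of ADAMTS1, ADAMTS5 and ADAMTS9, fell in SoF cells by 1.77 (SE 0.47) on the log2 scale and stood at -1.12 (SE 0.44) in wt and -0.87 (SE 0.47) in Ctrl cells without being called. Of 8 substrate genes 5 passed the filter, and BCAN, THBS1 and NID1 were not called in any line. COMP, the substrate of ADAMTS7 and ADAMTS12, had 0 counts in all libraries.

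Of 5 inhibitor genes 4 passed the filter. A2M, which encodes the broad protease trap alpha-2-macroglobulin, rose from 23.6 and 25.6 to 37.7 and 67.1 CPM in wt, from 10.1 and 18.3 to 39.9 and 51.9 in SoF, and from 10.2 and 9.66 to 32.1 and 42.2 in Ctrl cells. The log2 change was 1.09 (SE 0.25), 1.71 (SE 0.27) and 1.90 (SE 0.28). TIMP3, the tissue inhibitor that acts on several ADAMTS enzymes, stood at 0.23 (SE 0.16), 0.26 (SE 0.16) and 0.15 (SE 0.16), and TIMP1 and TIMP2 were not called either. Of 7 genes for maturation and clearance only FURIN, a convertase that cleaves ADAMTS precursors, was called. It rose by 0.97 (SE 0.22) in SoF and by 0.83 (SE 0.22) in Ctrl cells. In wt cells it stood at 0.66 (SE 0.22) and was not called.

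**Figure D4:**
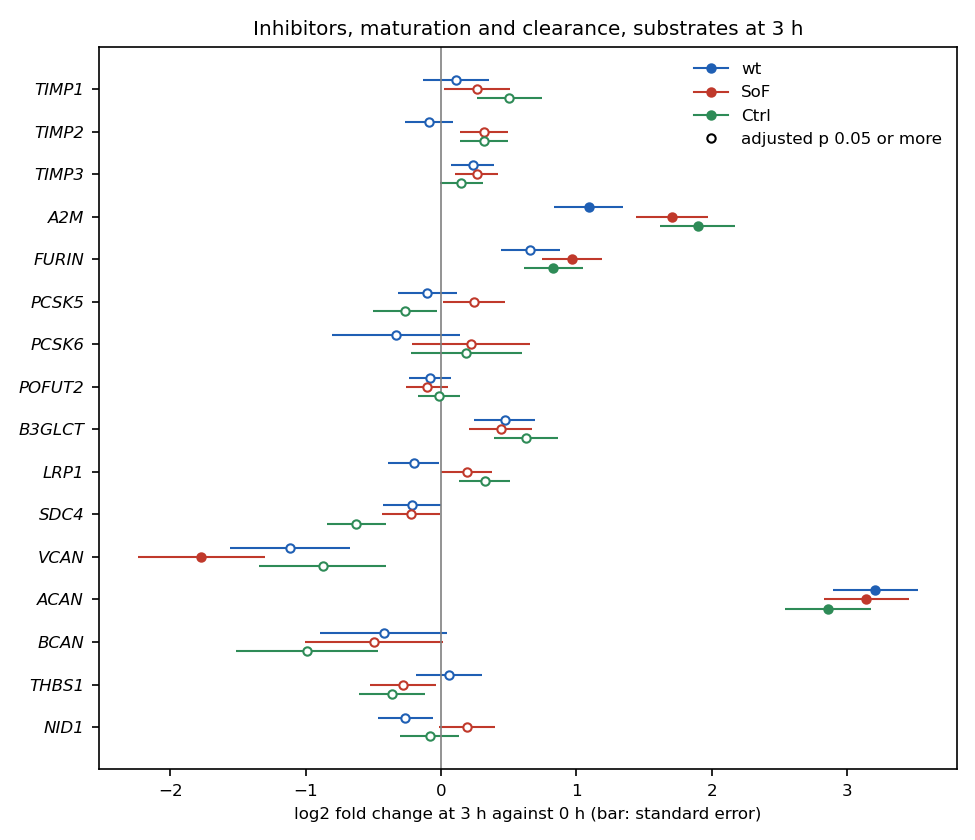
Log2 fold change at 3 h against 0 h (horizontal axis) with its standard error (bars) for inhibitors, maturation and clearance genes and substrates of ADAMTS proteases in wt, SoF and Ctrl cells. Filled points have an adjusted p under 0.05; ACAN (2.86 to 3.21) and A2M (1.09 to 1.90) are filled in all lines, FURIN in SoF and Ctrl cells, and VCAN in SoF cells.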

How the data were processed

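Newly made RNA was measured in 24 libraries, 2 for each of 3 lines at 4 times. Per the methods and the labels, the authors tagged reads with unique molecular identifiers (UMI-tools 1.1.2), trimmed them (Trim Galore 0.6.6), aligned them to hg38 (STAR 2.7.3a), removed duplicates and counted reads over exons with featureCounts and GENCODE gene models. The deposited counts are whole numbers per gene, not normalized. That strand was used in counting is given only by the table's title, so reads from overlapping genes on opposite strands may not be fully separated. Symbols and exon lengths came from GENCODE release 44, which matched 61369 of 61533 genes (99.7%).

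Counts were tested with edgeR 4.0.16 (R 4.3.3), with TMM scaling, filterByExpr (minimum count 10, minimum total 15), a quasi-likelihood F test over 12 groups (3 lines for the comparison with time ignored) and Benjamini-Hochberg adjustment over all genes tested at 0.05. SE is the log2 change divided by the square root of F. CPM used TMM-scaled library sizes, and correlations used a prior count of 2. Common biological variation was 14.2% over 12 groups and 24% over 3 lines. Fitted values of the pseudogenes are not given, because of their low counts. Ratios and shares have exact intervals. The fit was tested on simulated data. Replicate libraries differed by more than sampling noise (chi-square per gene 6.16 to 22.6). In each line the 0 h group had the highest value, at 22.6 in wt, 20.5 in SoF and 19.4 in Ctrl cells. The 1 h group of wt cells had 19.1, and the 3 h groups had 8.19 in wt, 7.07 in SoF and 6.16 in Ctrl cells.

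The members and all gene lists were chosen with earlier results of these data known. All members are named. Of other lists, genes called at 3 h in at least 1 line are named, up to 4 a list by smallest p, and further genes named there were chosen for their role. Alternatives were DESeq2 1.42.0 and its size factors, no filter, a replicate block, only the libraries of the lines compared, each library left out and, with time ignored, an additive time term, the 0 h libraries alone and each replicate left out.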

Additional observations from a re-analysis of the deposited data

Results flagged for a closer look

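In ADAMTS7P3, 1 SoF library stood apart from the other 7 of its line, at 1.05 CPM (replicate 1 of 3 h), a gap wide for the range of the group by Dixon's criterion. The 8 libraries of a line mix 4 times, and the other 3 h library read 0.344 CPM. Of 24 such groups of libraries examined (8 members in 3 lines) 1 was singled out, and chance does this for about 1 group in 20.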

How the results depend on the processing

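No called value of a coding member changed direction under any alternative run, whereas differences near 0 that were not called did in some. At 3 h against 0 h, 5 of 6 were called in every line under each alternative of method. These were DESeq2, its size factors, no filter, the replicate block and only the libraries of the lines compared. The share of all genes called is given here only for the main fit and the additive time term. Counts under the other alternatives have no such background beside them and describe the members alone. Leaving out 1 library in turn gave counts of 1 to 4 in wt cells at 2 h, 1 to 4 in SoF cells at 2 h, 3 to 5 in Ctrl cells at 3 h, 3 to 4 in wt cells for 3 h against 1 h and 3 to 5 in Ctrl cells for 3 h against 1 h. Each left a group with 1 library, whose spread was taken from the other groups. Without the filter, 1 member (ADAMTS9) was called in SoF cells at 1 h. With time ignored, the additive time term called 2 members for SoF against Ctrl (13.3% of all genes) and 1 for SoF against wt (29%), and DESeq2 called 1 for SoF against wt; the cause was not tested. The replicate numbers did not pair the libraries by the criterion used: differences between replicates 1 and 2 correlated across the 0 h groups of the 3 lines (0.39 to 0.57), but between -0.22 and 0.43 for the other 63 pairs of groups, of which 18 were above 0.1. The replicate block called 1 member (ADAMTS12) for SoF against wt with time ignored and also ADAMTS9 in Ctrl cells at 2 h, as did DESeq2, no filter and the libraries of that line alone, and changed no other count of coding members called by more than 1.5 times. Low counts limit ADAMTS7P1, ADAMTS7P3 and, at 0 h, ADAMTS7.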
